A study of Saccharomyces cerevisiae with 23 samples.

Results

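The regions described here are the 16 windows reaching 10 kb to each side of the centromeres of the budding yeast nuclear chromosomes. An insertion site of the retrotransposon Ty1 was a distinct chromosome, strand and 5′ end of an aligned interval, and a site belonged to the windows when it lay within 10 kb of a centromere position given on the R64 build. By that rule 3556 of 152129 nuclear sites lay in the windows in the galactose library and 252 of 11208 in the dextrose library. Together the windows spanned 320.0 kb, or 2.65% of the nuclear positions. Of these sites, 2214 in galactose and 188 in dextrose lay more than 2 kb from every tRNA gene, in the 299.0 kb of the windows that remain after that restriction. The centromere positions used here are rounded to 100 bp, so a distance may be wrong by about 50 bp. On chromosome I, for example, the window was centred on position 151500, in the space between TFC3, which encodes a subunit of the RNA polymerase III initiation factor TFIIIC, and NUP60, which encodes a nuclear pore protein.

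Both libraries came from the haploid Saccharomyces cerevisiae strain BY4741 (MATa his3delta1 leu2delta0 ura3delta0 met15delta0) carrying the plasmid pJEF2365, with 1 library from cells held 24 h in 2% galactose and 1 from cells held 24 h in 2% dextrose. Before that, cells of both libraries grew overnight in 2% raffinose with 0.1% dextrose. Afterwards both were grown for 24 h in dextrose and then for 2 periods of 24 h in dextrose with 5-FOA at 1 mg/mL, which is toxic to cells able to make uracil through URA3. The labels give the medium of the sugar step once as complete and once as lacking uracil, and which was used is not settled here.

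A budding yeast centromere is a short defined DNA element on which a single nucleosome containing Cse4, the centromeric form of histone H3, is assembled. The kinetochore, the protein complex that ties the chromosome to a spindle microtubule, is built on that nucleosome. Ty1 is copied from RNA into DNA and inserted by its integrase, which is known to be recruited by RNA polymerase III, so that most new copies enter nucleosomal DNA upstream of tRNA genes and other genes of that polymerase. Inserted elements are rarely seen in essential coding sequence in surviving cells.

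The libraries differed in depth. The galactose library held 170698 intervals and the dextrose library 11577, of which 300 and 46 were mitochondrial and were not used. With 1 library per medium and no replicate, the media were compared without a test, and every interval given here is a 95% interval that covers counting error only. No genome sequence was used, so how well a position can be recovered after MseI digestion or mapped was not taken into account. In 134 stretches of 2 kb or more neither library had any site, and such stretches made up 2.01% of the windows and 5.48% of the remaining nuclear positions.

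With all sites counted as defined above, the centromere windows held fewer Ty1 sites per kb than the rest of the nuclear genome in both media. The density was 11.1 sites per kb in the windows and 12.6 beyond them in galactose, a ratio of 0.879 (0.850 to 0.909). That direction did not hold under each other definition: with sites of a strand within 5 bp merged the ratio was 1.06, with an interval above 1, and with windows of 20 kb it was 1.49 (1.47 to 1.52), and positions beyond 100 kb held 11.5 sites per kb. In dextrose the density was 0.788 sites per kb in the windows and 0.933 beyond them, a ratio of 0.845 (0.742 to 0.957), which was 1.13 with windows of 20 kb. Without sites within 2 kb of tRNA genes the galactose order turned round, with 7.41 sites per kb (7.10 to 7.72) in the windows and 6.26 beyond them, a ratio of 1.18 (1.13 to 1.23). In dextrose the same restriction left 0.629 sites per kb (0.542 to 0.725) in the windows and 0.726 beyond them, a ratio of 0.866 (0.746 to 1.00). Once sites near tRNA genes were left out, the windows therefore lay above the rest in galactose and at or below it in dextrose.

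The windows held 6 of the 275 nuclear tRNA genes, 1.88 per 100 kb, and none lay within 3 kb of a centromere. That was close to the 1.81 per 100 kb of positions beyond 100 kb. The zones in between were richer, with 20 tRNA genes, or 6.25 per 100 kb, from 10 to 20 kb and 5.31 per 100 kb from 20 to 30 kb, so that all positions beyond the windows averaged 2.29 per 100 kb. The positions within 2 kb of a tRNA gene made up 6.58% of the windows, 24.9% of the zone from 10 to 20 kb and 7.06% of the positions beyond 100 kb.

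By distance, all galactose sites together followed these tRNA genes. The first 3 bins of 1 kb, counted outwards from the centromere, held 9.31, 9.0 and 9.56 sites per kb. The bins from 3 to 4 and 4 to 5 kb, where 3 of the tRNA genes lie, held 16.4 and 13.3. The next bins held 9.44, 6.47 and 7.59 sites per kb, and the last ones, from 8 to 9 and 9 to 10 kb, held 12.8 and 17.3. From 10 to 20 kb the density was 25.6 sites per kb, which was 2.02 times (1.98 to 2.07) the level of all positions beyond 10 kb, and it was 18.3, 17.8 and 15.6 in the 3 following zones of 10 kb. The all-site profile thus had its low part inside the windows and its high part just beyond them.

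Without sites within 2 kb of tRNA genes, the galactose density was instead highest next to the centromere and lower with distance. It was 9.31, 9.21, 7.92, 7.97 and 7.20 sites per kb in the first 5 bins of 1 kb. In the next 5 bins it was 6.61, 6.40, 7.02, 6.28 and 5.73, close to the 6.26 of all positions beyond 10 kb. Set against that level, the ratio was 1.49 (1.32 to 1.67) in the first 1 kb, 1.23 (1.14 to 1.32) from 2 to 5 kb and 1.03 (0.961 to 1.09) from 5 to 10 kb. The ratio in the first 1 kb depended on the intervals counted: it was 2.08 (1.75 to 2.45) with 96-base intervals, 1.05 (0.875 to 1.24) with intervals of 50 to 95 bases, and 0.614 (0.369 to 0.959), from 19 sites, with sites in 2 or more intervals. The zone from 10 to 20 kb, at 6.35 sites per kb, had a ratio of 1.01 (0.963 to 1.07), so over all these positions the higher density ended inside the windows. In that zone the ratio was 1.09 (1.03 to 1.16) inside coding sequence and 0.882 (0.804 to 0.966) outside it. A second zone was also high, from 30 to 40 kb with 7.89 sites per kb, but its median over the 16 centromeres was 6.31, whereas the median in the first 1 kb was 9.49.

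**Figure D1:**
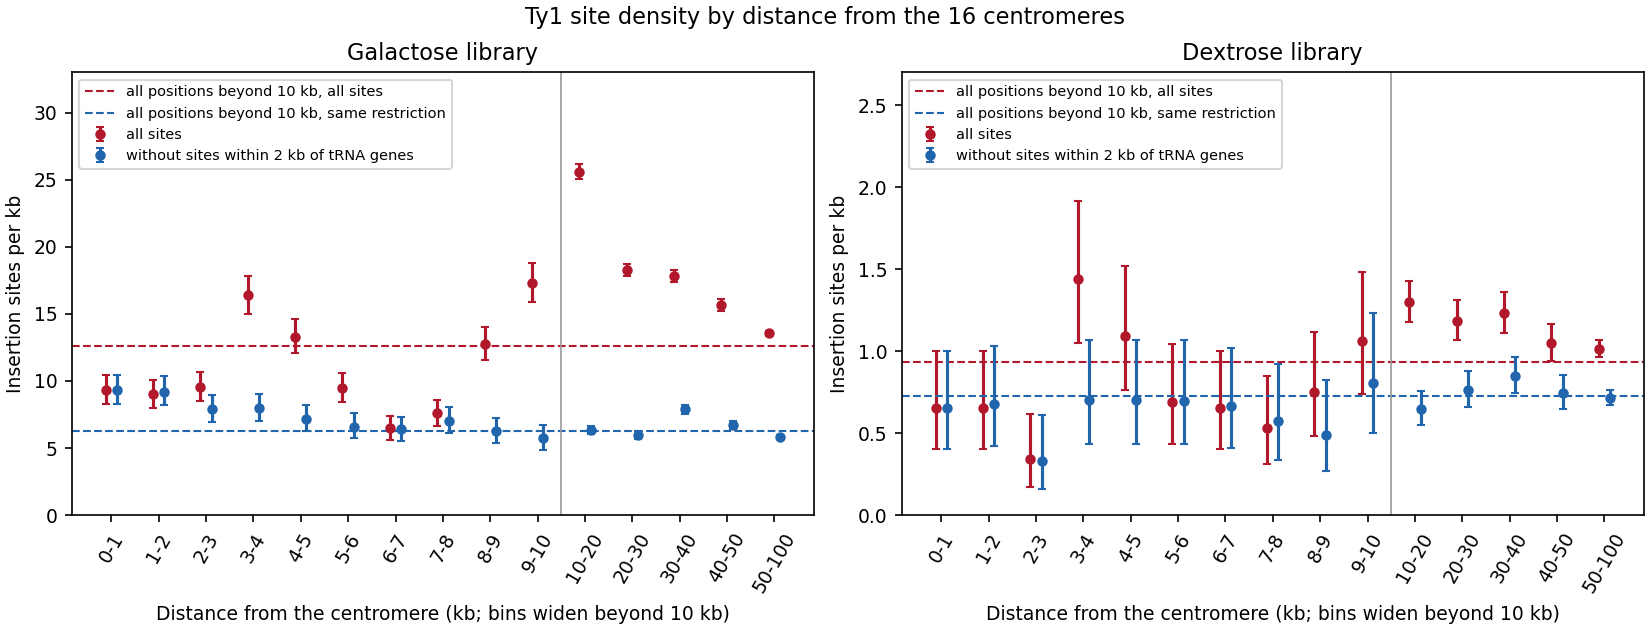
Ty1 insertion sites per kb (y axis) by distance from the centromere (x axis, kb) summed over the 16 centromeres, galactose at the left and dextrose at the right, for all sites (red) and without sites within 2 kb of tRNA genes (blue); bars are exact Poisson 95% intervals and dashed lines the density of all positions beyond 10 kb. In galactose the blue points lie above their line in the first 5 kb, and the red points reach 25.6 sites per kb at 10 to 20 kb.

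No such slope could be seen in the dextrose library at its depth. Its sites beyond 2 kb of tRNA genes numbered 21, 21, 10, 21 and 21 in the first 5 bins of 1 kb and 21, 21, 17, 14 and 21 in the next 5. The first 1 kb had 0.656 sites per kb against 0.726 in positions beyond the windows, a ratio of 0.904 (0.559 to 1.38). The upper bound of that interval, 1.38, lay below the galactose ratio of 1.49 and inside its interval. The share of sites is the more direct comparison of the media: sites within 2 kb of a centromere made up 0.842% of the galactose sites beyond 2 kb of tRNA genes and 0.527% of the dextrose ones, a difference of 0.315 percentage points (0.120 to 0.469). The libraries differed in interval length, with 34.5% of galactose and 11.9% of dextrose sites of this kind beyond the windows having a 96-base interval. Within 1 class of length the interval of the difference for 2 kb included 0, at 0.450 points (-0.302 to 0.820) for 96-base sites and 0.126 points (-0.0874 to 0.292) for sites of 50 to 95 bases. For the whole windows the shares were 3.19% in galactose and 2.36% in dextrose, a difference of 0.834 points (0.455 to 1.17). By class it was 1.12 points (-0.0485 to 1.92) for 96-base sites and 0.641 points for sites of 50 to 95 bases, where the interval began at 0.219 and did not include 0. With all sites counted, the windows held 2.34% of sites in galactose and 2.25% in dextrose, and the difference of 0.0891 points (-0.212 to 0.359) was not detectable. Medium and library cannot be told apart here.

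Seen in steps of 100 bp, the galactose sites left a gap at the centromere itself with a dense flank on each side. The first 100 bp on both sides of the 16 centromeres held 6 sites, 1.87 per kb (0.685 to 4.06), which was 0.298 times (0.109 to 0.649) the level beyond the windows. From 100 to 400 bp there were 147 sites, 15.3 per kb (12.9 to 18.0), which was 2.45 times (2.07 to 2.88) that level. The density at the centromere was 0.122 times (0.0440 to 0.272) that of the flank. The 100 bp steps and the limits of the flank were chosen after the values were seen, and these intervals do not allow for that. Counted outwards in steps of 100 bp with both sides summed, the numbers of sites were 6, 44, 63, 40, 30, 28, 24, 30, 10 and 23. Each arm had 3 sites in the first 100 bp. From 100 to 400 bp, counted outwards, the left arm had 26, 29 and 22 sites, 2.56 times (2.02 to 3.20) the rest, and the right arm had 18, 34 and 18, 2.33 times (1.82 to 2.94) the rest. On the right arm the steps from 500 to 600 and 700 to 800 bp also held 18 sites each, and without chromosome VI its flank was 1.81 times (1.35 to 2.38) the rest.

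**Figure D2:**
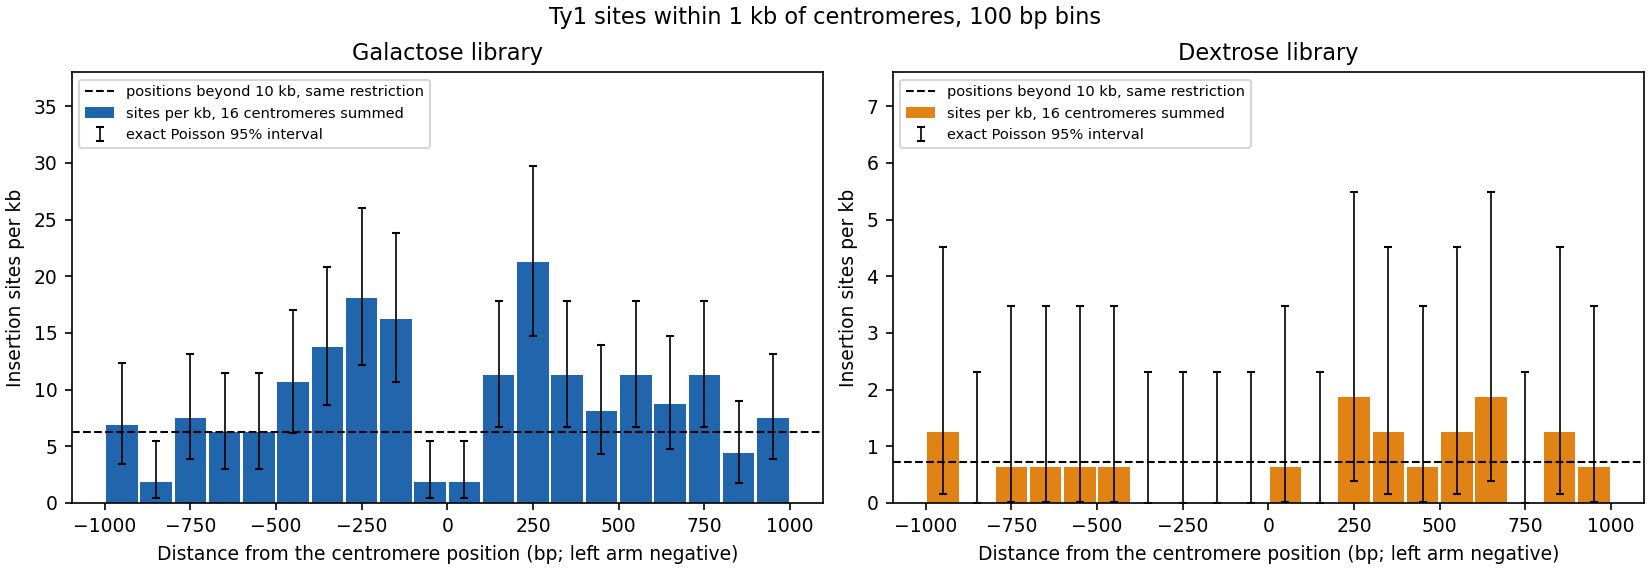
Ty1 insertion sites per kb (y axis) in 100 bp bins by distance from the centromere position (x axis, bp, left arm negative), summed over the 16 centromeres, without sites within 2 kb of tRNA genes, galactose at the left and dextrose at the right; black bars are exact Poisson 95% intervals and the dashed line is the density beyond 10 kb. The galactose bars hold 3 sites in each of the bins that touch the centromere and 34 sites in the highest bin, 200 to 300 bp to the right.

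The 6 galactose sites within 100 bp of a centromere came from 5 chromosomes. They lay at position 238391 on the minus strand of chromosome II, 449700 (minus) of IV, 148692 (plus) of VI, 628729 and 628730 (both minus) of XIV, and 556052 (plus) of XVI. The positions on IV and II lay 100 and 91 bp from the rounded centromere position and the one on XVI lay 52 bp from it, so no site was found within 50 bp of a rounded position. The pair on XIV lay 1 bp apart. The dextrose library had 1 site in the first 100 bp and 5 sites from 100 to 400 bp, where its ratio to the rest was 0.718 (0.233 to 1.68). Sites from 100 to 400 bp made up 0.212% of the galactose sites beyond 2 kb of tRNA genes and 0.0627% of the dextrose ones, a difference of 0.149 points (0.0595 to 0.201). Within 1 class of interval length the 95% interval of this difference included 0, at 0.350 points (-0.0594 to 0.433) for 96-base sites, of which dextrose had 0 in the flank, and 0.0441 points (-0.0588 to 0.100) for sites of 50 to 95 bases.

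The flank was not built by 1 chromosome. From 100 to 400 bp the galactose library had 21 sites at the centromere of chromosome VI, 15 at VIII, 14 at III and at IX, 12 at V, and 10 at II, XI and XIII. It had 9 sites at XIV and XV, 6 at IV and XVI, 5 at VII, 4 at I, and 1 at X and XII. Leaving out 1 centromere at a time kept the ratio of the flank to the rest between 2.24 (without VI) and 2.59 (without X or XII). Single flanks were lopsided: all 14 sites at IX lay on the left arm, 12 of 15 at VIII lay on the left arm, and 19 of 21 at VI lay on the right arm, and 15 of those 21 sites fell from 200 to 300 bp away.

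The flank depended on the class of interval and on how a site was defined. Intervals of exactly 96 bases gave 84 sites from 100 to 400 bp, 4.05 times (3.23 to 5.01) their level beyond the windows, and 2 sites in the first 100 bp. Intervals of 50 to 95 bases gave 51 sites in the flank, 1.36 times (1.01 to 1.79) their level beyond the windows, and 4 in the first 100 bp. Of the sites within 1 kb, 48.3% had a 96-base interval (42.5% to 54.2%), compared with 36.2% over the whole windows and 34.5% beyond them. Sites seen in 2 or more intervals were scarce in the flank, with 4 sites and a ratio of 0.431 (0.117 to 1.10), so the flank consisted almost wholly of positions with 1 deposited interval. Duplicates had been removed before deposit, so the number of intervals does not show how often a position was read. With the 3′ end of the interval as the site, the first 100 bp held 14 sites, 0.571 times (0.312 to 0.959) the rest, and the flank 138 sites, 1.89 times (1.59 to 2.23) the rest. The part of recovery and mapping in these class differences was not tested.

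Less of the first 1 kb is coding sequence than of the windows as a whole, and galactose sites were denser outside coding sequence, at 8.96 per kb, than inside it, at 5.34 per kb, in the positions beyond the windows. Protein-coding genes covered 47.0% of the positions in the first 1 kb, 74.5% of the windows and 74.6% of the positions beyond them, all taken beyond 2 kb of tRNA genes. Given the rest's densities inside and outside coding sequence, 232.5 galactose sites would fall in the first 1 kb, and 298 were seen, a ratio of 1.28 (1.14 to 1.44). The same ratio was 1.48 (1.31 to 1.66) from 1 to 2 kb, 1.24 (1.15 to 1.33) from 2 to 5 kb and 1.06 (0.989 to 1.13) from 5 to 10 kb. In the first 1 kb the allowance for coding sequence thus left a ratio of 1.28, against 1.49 without it, and from 1 to 2 kb it left the excess as it was, at 1.48 with it and 1.47 without it. Outside coding sequence alone, the first 100 bp had 0.208 times (0.0764 to 0.453) the rest's non-coding density and the flank from 100 to 400 bp had 15 sites per kb, or 1.67 times (1.39 to 1.99) it. Non-coding positions from 1 to 2 kb were denser still, at 17.4 sites per kb, or 1.95 times (1.63 to 2.30) the rest. Inside coding sequence, the first 1 kb had 7.05 galactose sites per kb and the rest 5.34, a ratio of 1.32 (1.08 to 1.60).

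The intergenic regions that hold a centromere were denser in galactose sites than other intergenic regions when summed, though not for every direction of the flanking genes. There were 16 of them, 17.5 kb in all, and none held another gene. They carried 201 galactose sites, 11.5 per kb (9.95 to 13.2), against 9.17 per kb in the other 3174 intergenic regions of at least 300 bp beyond 2 kb of tRNA genes, a ratio of 1.25 (1.09 to 1.44). With 96-base intervals only the ratio was 1.45 (1.18 to 1.76), and in dextrose, with 10 sites, it was 0.804 (0.385 to 1.48). By the direction of the flanking genes, the 9 tandem regions had 12.6 galactose sites per kb (10.35 to 15.15) against 8.44 in other tandem regions. The 2 divergent ones had 12.7 (9.28 to 16.9), an interval that includes the 9.60 of other divergent regions. Of these 2, the region on V had 16.1 and that on I had 4.59. But the 5 convergent ones had 8.71 (6.33 to 11.7) against 11.2. By the median region the convergent order was the other way, at 9.544 sites per kb with a centromere and 5.495 in the others. The densest of the other convergent regions had 236.5 sites per kb, which weighs on their summed density. Densities ran from 2.29 sites per kb between PRE3 and AVT1 on chromosome X to 30.8 between DEG1 and LOC1 on chromosome VI. Of the 16 regions, 5 lay over 1.5 times above the overall intergenic density and 4 lay as far below it. Among all intergenic regions 17% lay above that cut and 42.2% below it, and 12 of the 16 lay above the median of the others.

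Chromosome by chromosome, the total in a window followed its tRNA genes. The 5 windows with a tRNA gene held 513 galactose sites at XIV, 425 at VI, 381 at XVI, 372 at XIII and 284 at III, and the 11 windows without one held 120 to 175 sites with a median of 139. Per kb the windows with a tRNA gene held 14.2 to 25.7 galactose sites. The same split was not made for windows elsewhere in the genome, in either medium. In dextrose the windows with a tRNA gene held 43 sites at XIV, 20 at XVI, 19 at XIII, 16 at VI and 12 at III, and the others held 10 to 17 with a median of 13, so only XIII, XIV and XVI stood above every window without a tRNA gene. Set against 20 kb windows along the whole nuclear genome with all galactose sites counted, 3 of the 16 lay over 1.5 times above the overall density and 9 lay as far below it. The background shares for these cuts were 21.4% and 63.3%, near those of the centromere windows.

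Beyond 2 kb of tRNA genes the 16 windows were close to each other. Galactose density ran from 6.00 sites per kb at XV to 9.43 at III, a 1.57-fold span with a median of 7.20, and 15 of 16 windows lay above the 6.26 of the rest. The median of all 20 kb windows was lower than that level, at 6.05, and 15 of the 16 lay above it. Of the 16, 13 lay above the remainder of their own chromosome, a count for which no share of all windows was computed. None passed the 1.5-fold cut upwards, where 5.26% of all 20 kb windows did, and none passed it downwards, where 6.74% did. With 16 windows these counts are near those shares, and III at 9.431 sites per kb lay just under the upper cut of 9.439. Dextrose density ran from 0.306 sites per kb at VI to 0.855 at X with a median of 0.641, and 3 of 16 windows lay above the rest. In dextrose, 0 of 16 lay over 1.5 times above and 2 of 16 as far below the overall density, where 7.57% and 15% of all windows did. Leaving out each centromere in turn moved the galactose ratio only between 1.16 (without III) and 1.20 (without XV), and the dextrose ratio between 0.844 (without X) and 0.892 (without VI).

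**Figure D3:**
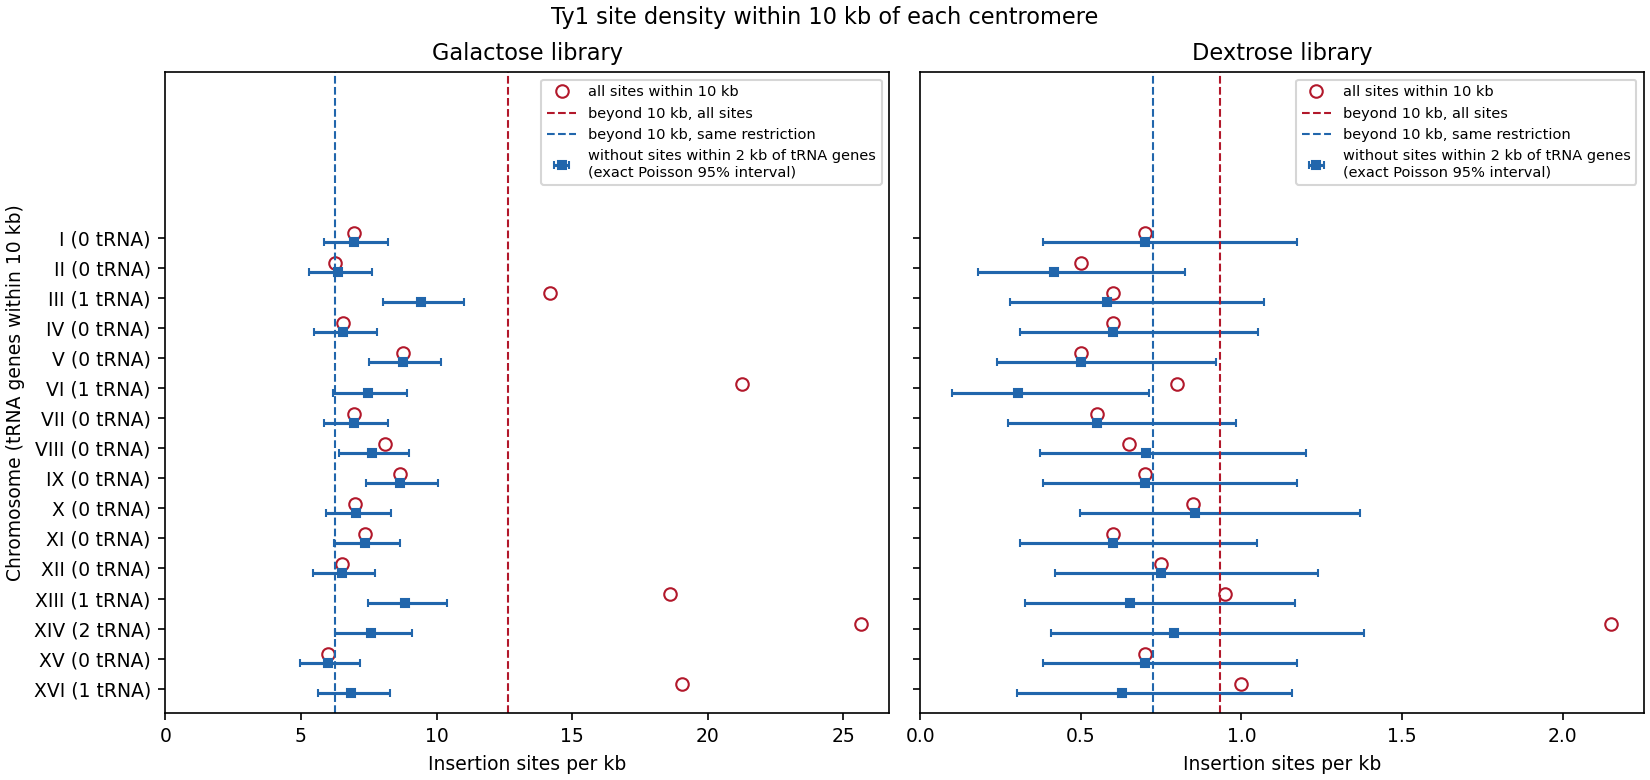
Ty1 insertion sites per kb (x axis) within 10 kb of each centromere (y axis, chromosome with its number of tRNA genes in the window), galactose at the left and dextrose at the right, for all sites (open red circles) and without sites within 2 kb of tRNA genes (blue squares with exact Poisson 95% intervals); dashed lines give the density beyond 10 kb. In galactose the red circles of III, VI, XIII, XIV and XVI stand apart at 14.2 to 25.7 sites per kb, while the blue squares lie between 6.00 and 9.43 sites per kb.

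Of the stretches of 2 kb or more with no site in either library, 2 touched a centromere window. On chromosome VI the stretch ran 5803 bp from position 137990 to 143792, with 5193 bp of it in the window, and YFL002W-A, a gene of a resident Ty2 element at 138204 to 143517, lies inside it. On chromosome I a stretch from 160276 to 166081 reached 1225 bp into the window, and YAR009C and YAR010C, genes of a resident Ty1 element, lie inside it. Leaving out all stretches of this kind genome-wide brought the galactose ratio of the windows to 1.14 (1.09 to 1.19) and that of the first 1 kb to 1.41 (1.25 to 1.58). In 1 kb bins, 12 of the 299 bins with at least 500 bp beyond 2 kb of tRNA genes had no galactose site, 4 of them in that stretch of chromosome VI. The densest bins held 27 sites at 8 to 9 kb left of the chromosome I centromere, 26 at 1 to 2 kb right of that of IX, and 24 and 23 at 1 to 2 and 2 to 3 kb right of that of III. Bins of 1 kb were not counted elsewhere in the genome, so whether these empty and dense bins are unusual is not known.

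**Figure D4:**
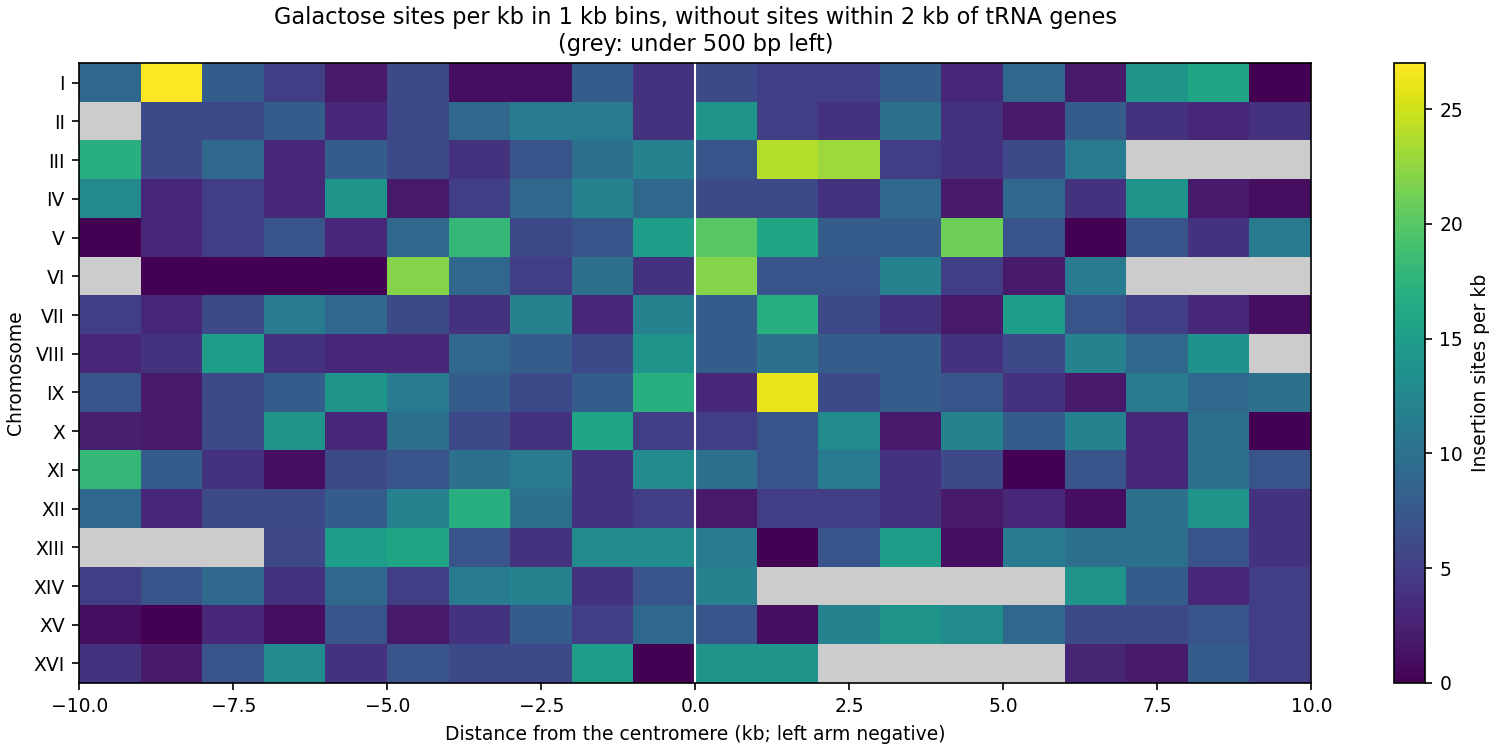
Galactose insertion sites per kb (colour) in 1 kb bins by distance from the centromere (x axis, kb, left arm negative) for each chromosome (y axis), without sites within 2 kb of tRNA genes; grey bins have under 500 bp left. The median bin holds 7.0 sites per kb, the brightest 27.0, and 4 adjoining bins at the left of chromosome VI hold none.

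At the scale of 2 kb centred on the centromere the densities had a wider span, 5.00-fold, on 7 to 35 sites each. Counting error is wider at such counts, and its part in the span was not tested. The galactose library had 35 sites within 1 kb at V, 26 at VI, 24 at XIII, 23 at XI and 22 at VIII. It had 20 at VII and IX, 19 at III and XIV, 18 at II, 16 at XV, 15 at IV and 14 at XVI. It had 10 at I and X and 7 at XII, and these last were the 3 centromeres below the rest's density. Their intervals, 2.40 to 9.19 sites per kb at I and X and 1.41 to 7.21 at XII, included that density. Among 5272 windows of 2 kb beyond 2 kb of tRNA genes, the median was 5.50 sites per kb and the upper quartile 7.50, and 13 of the 16 centromere windows lay above that median and 11 above that quartile. Of the 16, 9 lay over 1.5 times above the overall density, where 13.7% of all 2 kb windows did, and 1 lay as far below it, where 30.5% did. The windows at the centromeres were short in coding sequence, as given above, and the windows along the genome were not matched for that. Leaving out each centromere in turn kept the galactose ratio of the first 1 kb between 1.40 (without V) and 1.55 (without XII).

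**Figure D5:**
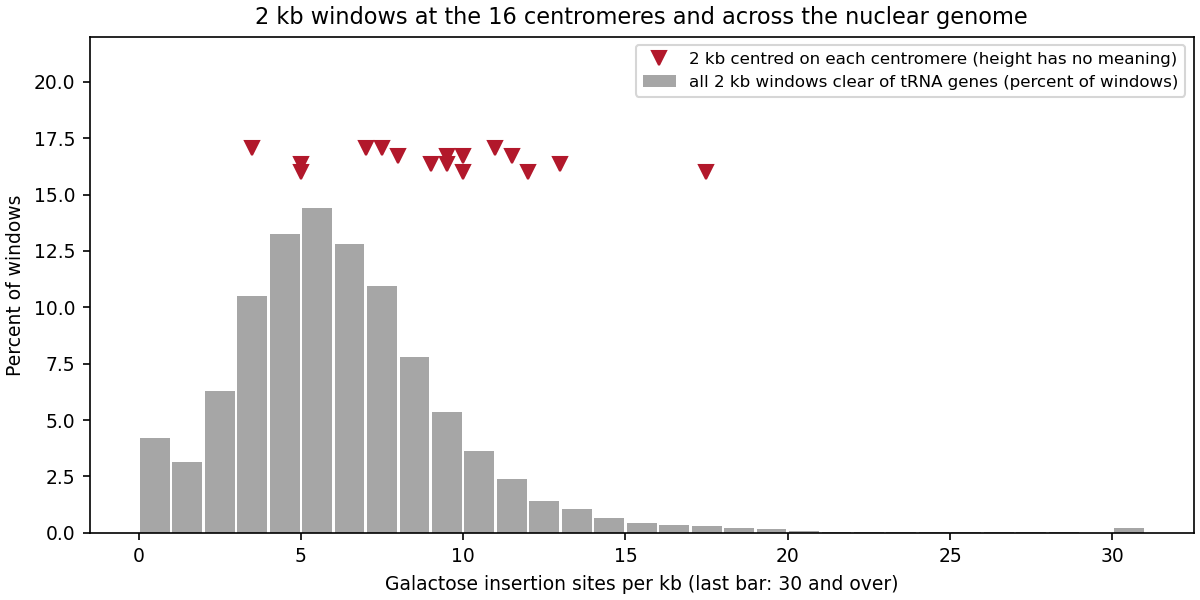
Galactose insertion sites per kb (x axis) in the 2 kb centred on each centromere (red triangles, whose height has no meaning) and in 5272 windows of 2 kb along the nuclear genome clear of tRNA genes (grey bars, percent of windows on the y axis, last bar for 30 and over). Of the 16 triangles, 13 lie above the genome median of 5.50 sites per kb and the highest, chromosome V, lies at 17.5.

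The 6 tRNA genes of the windows were used as Ty1 targets about as often as tRNA genes elsewhere. In the 1 kb upstream, where Ty1 insertions at such genes gather, their median was 211.5 galactose sites against 213 for all 275 tRNA genes. YNCF0005C on chromosome VI (157916 to 158007, minus strand) had 326 sites in galactose and 9 in dextrose, and ranked 56 of 275 in galactose. SUF10 on XIV (631846 to 631917, minus) lay nearest to a centromere, at 3046 bp, and had 265 galactose and 26 dextrose sites. YNCN0017W, also on XIV (632599 to 632672, plus), had 248 galactose and 24 dextrose sites in an upstream window that overlaps that of SUF10, so these counts share sites.

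The other 3 tRNA genes were lower. YNCP0008C on XVI (560198 to 560289, minus) had 175 galactose and 9 dextrose sites, and YNCM0009C on XIII (259158 to 259239, minus) had 173 and 8. SUF2 on III (123577 to 123648, minus) had 62 galactose sites and 1 dextrose site, ranking 242 of 275 in galactose. In galactose, 0 of the 6 had at least 2 times the median and 1 had at most 0.5 of it, where 6.91% and 20% of all tRNA genes did. In dextrose, 2 of the 6, the overlapping pair on XIV, were at least 2 times above the median of 7 and 1 was as far below it, where 21.5% and 25.5% of all tRNA genes were. Sites within 2 kb of any tRNA gene, also one outside the windows, made up 37.7% of the galactose sites in the windows and 25.4% of those in dextrose. The difference was 12.3 points (6.41 to 17.6). Beyond the windows the shares were 54.8% and 28.9%, a larger difference of 25.9 points (25 to 26.7). For scale, the centromere flank at 15.3 sites per kb lay far under the median of 213 sites in the 1 kb upstream of a tRNA gene. None of 12 other listed RNA polymerase III genes lay in a window; the nearest was RPR1, the RNA of nuclear RNase P, at 33965 bp from the centromere of V.

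Genes in the windows also carried somewhat more galactose sites than genes elsewhere. The 149 protein-coding genes lying wholly in the windows and clear of tRNA genes had 6.53 galactose sites per kb of gene body (6.16 to 6.91), against 5.32 in the genes beyond the windows, and 0.686 dextrose sites per kb against 0.728. Of the 149, 47 (31.5%) lay over 1.5 times above the density of all such genes and 30 (20.1%) as far below it, where 22.2% and 29.8% of all genes did. The mean count in the 500 bp upstream was 5.07 galactose sites in the windows and 4.17 beyond them. By density in the body the leading genes were YMR001C-A with 7 sites (30.3 per kb), CMI7 with 6 (28.6), GIM4, a subunit of the prefoldin chaperone, with 9 (21.2), EFB1, a translation elongation factor, with 19 (19.3), and SNF8, a subunit of the ESCRT-II sorting complex, with 13 (18.5). Several of these bodies are short, and the interval of the count for YMR001C-A was 2.81 to 14.4 sites.

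The genes with the most sites upstream included several next to a centromere. In the 500 bp upstream, LOC1 on chromosome VI, which acts in mRNA localization and ribosome biogenesis, had 20 galactose sites, ranking 20 among all clear genes, and this upstream stretch reaches into the dense right flank of the centromere. EFM5 on VII and NOP16, a ribosome biogenesis factor, on V had 17 each, SGN1 on IX had 16, and OST1, a subunit of the oligosaccharyltransferase, and PRE3, a proteasome subunit, on X and YML003W on XIII had 13 each. LOC1, EFM5, SGN1 and PRE3 begin or end 510, 133, 443 and 474 bp from their centromeres. EFM5 and SGN1 lie right of the centromere on the minus strand, so their upstream stretches are on the far side of the gene. PRE3 lies left of its centromere on the plus strand, so its upstream stretch is on the far side too. OST1 and PRE3 are divergent neighbours whose upstream stretches overlap almost wholly, so their counts share sites. The genes of both groups had 0 to 2 dextrose sites in the body and 0 or 1 upstream, too few to rank.

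The genes nearest to the centromeres, 31 of them clear of tRNA genes, had 6.44 galactose sites per kb of body (5.71 to 7.25), against 5.35 in all clear genes. None of the 31 had 0 sites, where 7.42% of all clear genes and 2.01% of those in the windows had 0. The 31 genes ranged from HAT1, a histone acetyltransferase, on XVI with 2 sites (1.78 per kb) to YIL001W on IX with 20 (13.0 per kb). Several are well-studied genes: CDC5, the polo kinase, on XIII had 9 sites in its body, MNN1, a mannosyltransferase, on V had 26, TFC3 on I had 14, and VPS1, a dynamin-like GTPase, on XI had 17. CIT1, the mitochondrial citrate synthase, on XIV is the one gene next to a centromere that lies within 2 kb of a tRNA gene, and it had 7 sites in its body and 22 in its upstream 500 bp. Of the snoRNA genes in the windows, SNR18 and SNR43 had 0 galactose sites and SNR87 had 1. SNR18 lies within EFB1.

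Sites in the windows were split about evenly between strands and arms. Beyond 2 kb of tRNA genes, 49.6% of the galactose sites in the windows (47.5% to 51.7%) were on the strand pointing away from the centromere, and 49.4% (47.3% to 51.5%) lay on the right arm. Protein-coding sequence held 61.4% of the galactose sites in the windows (59.4% to 63.5%) and 63.7% beyond them, and 78.7% of the dextrose sites in the windows (72.2% to 84.3%) and 74.1% beyond them. Since coding sequence made up 74.5% of these window positions, galactose sites were under-represented in it and dextrose sites were not. Outside coding sequence in the windows, galactose had 11.2 sites per kb and 1.25 times (1.17 to 1.34) the rest, while dextrose had 0.524 per kb and 0.708 times (0.505 to 0.968) the rest.

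As elsewhere, few positions in the windows had more than 1 interval. Of the sites in the windows, 317 in galactose (8.91%, 8.00% to 9.90%) and 10 in dextrose (3.97%, 1.92% to 7.18%) had more than 1 interval, compared with 7.76% and 2.80% of the sites beyond them. Without sites within 2 kb of tRNA genes the galactose order was reversed, at 13.55% (12.15% to 15.05%) in the windows and 15.45% beyond them. In dextrose the same shares were 4.79% (2.21% to 8.89%) and 3.66%. The highest in galactose was position 234878 on the minus strand of chromosome II, in UTP20, with 7 intervals. Positions 437288 (plus) of XI in MRP17 and 621524 (plus) of XIV in MRP7, both genes of mitochondrial ribosomal proteins, had 6, and 16 positions had 5, among them 452465 (minus) of IV in NTH1, a trehalase gene, and 346087 (plus) of IX in EPS1, which came first by chromosome name. The intervals at these 5 positions were 51 to 94 bases long. In dextrose 10 positions had 2 intervals each, and the first 5 of them by chromosome name were 149663 (plus) of I in TFC3, 115054 (minus) of III near YCR001W, 152582 (minus) of V near MNN1, 155490 (minus) of VI in SAD1 and 438943 (plus) of X in MPP10.

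Many dextrose sites in the windows were also galactose sites. Of the 252 dextrose member sites, 139 (55.2%, 48.8% to 61.4%) had the same chromosome, strand and position in galactose, compared with 57.2% of the dextrose sites beyond the windows. Within 2 kb of tRNA genes the share in the windows was 53 of 64 (82.8%), and beyond 2 kb it was 86 of 188 (45.7%), compared with 47.3% beyond 2 kb of tRNA genes outside the windows. The libraries shared a sequencing lane, per their read names. The part of shared reads or of sites present before the sugar step in this overlap was not tested.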

How the data were processed

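Ty1 insertion profiling was analysed in 2 libraries; 21 MNase samples in 8 groups were not analysed here. Per the labels' protocols, DNA was cut with MseI, ligated to adaptors, cut with BglII and amplified by PCR. Picard 3.4.0, bedtools 2.31.1, SAMtools 1.22, BWA 0.7.19 and Trimmomatic 0.39 were used with R64 (sacCer3), per the submitters' processing notes. How they were set is not given in the sources used here. The authors deposited intervals with positions and a mapping score of 30 to 60, unnormalized, and the names they gave state that duplicates were removed. The end of an interval that marks the insertion was taken to be its 5′ end. Genes came from a RefSeq table of R64 (275 nuclear tRNA genes, strand from the systematic name); nuclear length was the last position covered by a gene or interval (12069662 positions in all). Densities are distinct sites per kb; the rest is every nuclear position beyond 10 kb of a centromere under the same tRNA restriction. Counts carry exact Poisson, shares Clopper-Pearson, density ratios exact conditional binomial and differences of shares Newcombe 95% intervals. They cover counting error only, because PCR reads carrying no molecular identifier need not be separate molecules; a 0 was read as a limit of 3 counts, a one-sided bound, where the two-sided Poisson interval reaches 3.69. Neighbouring positions vary by more than counting error. Python 3.11.15, numpy 2.4.6, pandas 2.3.3 and scipy 1.17.1 were used, and the density code was tested on simulated data. Named were all 16 windows, the tRNA genes in them, the 5 genes with the most galactose sites per kb of body and the 5 with the most upstream, genes next to a centromere, and the 5 positions with the most intervals per library. The members, lists and comparisons were chosen with earlier results of these data known, and the profile in 100 bp steps and the zone from 100 to 400 bp were chosen after its values were seen.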

Additional observations from a re-analysis of the deposited data

How the results depend on the processing

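No paired analysis was possible because each medium had 1 library. Of 6 density ratios, 3 with an interval that excluded 1 crossed to the other side of it under some setting, and the cause was not tested. For all galactose sites within 10 kb (0.879) the ratio was 1.01 with at least 2 intervals per site, 1.06 with sites within 5 bp merged and 1.49 with a 20 kb window, which takes in the tRNA genes from 10 to 20 kb. It was 0.830 with 96-base intervals, 0.936 with 3′ ends and with 50 to 95-base intervals, 0.611 as a median over centromeres, 0.912 with a 5 kb window, 0.802 without XIV and 0.848 without stretches that lacked sites. For galactose beyond 2 kb of tRNA genes (1.18) it was 1.04 with at least 2 intervals, 1.24 with 96-base and 1.12 with 50 to 95-base intervals, 1.33 and 1.11 with windows of 5 and 20 kb, and 1.09 with a tRNA distance of 1 kb. In the first 1 kb (1.49) it was 0.614 with at least 2 intervals, 2.08 with 96-base and 1.05 with 50 to 95-base intervals, and 1.28 with 3′ ends, with intervals in place of sites and with coding share taken into account. In dextrose, at least 2 intervals gave 1.20 for all sites (0.845), 1.13 beyond 2 kb of tRNA genes (0.866) and 2.35 in the first 1 kb (0.904), each from at most 10 sites, and a 20 kb window gave 1.13 for all sites. The settings on 50 to 95-base intervals, coding share, sites not found in the other library, and stretches without sites were chosen after seeing the data, as were those for the flank from 100 to 400 bp. The other settings moved the ratios by less than their counting error. The dextrose library, with 252 sites in the windows, sets the limit of what could be compared between media.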
